A study of Camponotus floridanus with 3 samples.

Results

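The comparison is between the whole-body transcripts of 2 workers of the Florida carpenter ant, Camponotus floridanus, of which 1 was a major and 1 a minor. It covers the 8730 features of the deposited table whose ID is Cflo_ and 5 digits and whose mean over both workers was at least 1 RPKM (reads scaled by the length of the feature and the read total of the library). These came from 16701 such IDs among 17323 features in all. The study sequenced 3 strand-specific libraries of poly(A) RNA, from 1 queen and 2 workers, each a snap-frozen whole body, and the queen serves here only as context. The labels name the caste (queen or worker) but leave it unsaid which worker was the major. Worker 1 and worker 2 below follow the labels' replicate numbering, and no direction by worker type can be given. All 3 ants came untreated from laboratory colonies that had a queen, kept at 25 °C with 12 hours of light. No age, genotype or colony of origin is stated. Each type is 1 ant, so differences between individuals and between worker types cannot be told apart.

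Majors and minors are female nestmates that differ in body size and head shape. Majors of this ant are known for defence and food storage, and minors for foraging and brood care. A whole body holds brain, muscle, gut, fat body, cuticle and glands together, so in a bulk sample fewer cells of a type and less RNA per cell cannot be told apart. The deposited IDs carry no gene names and 0 of them matched RefSeq's genes (assembly Cflo_v7.5), so features appear by ID, without function or sequence. Worker type could not be checked against marker genes for the same reason.

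The libraries differed in depth. The values had been divided by 6688533 reads in worker 1 and 13773937 in worker 2, totals recovered from the steps of the values, in which 1 read of a feature of known length has a fixed worth. Lengths and reads were recovered in the same way for 8710 of the 8730 features. Their recovered reads came to 1333816 in worker 1 and 5235406 in worker 2. Both are well short of the totals, and they differ more between the workers than the totals do. The sums leave out Cflo_13851, Cflo_13846 and Cflo_13845, the most abundant features of worker 1, whose lengths were not recovered. All of these were higher in worker 1, so their absence adds to both gaps. The 8710 features had a median of 20 reads in worker 1 and 196.5 in worker 2, and 2392 of them rested on 1 to 9 reads in worker 1 against 148 in worker 2. For a feature of 1607.5 bases, the median, 1 read was worth 0.0930 RPKM in worker 1 and 0.0452 in worker 2. With 1 library a side there is no spread between replicates, no test and no p-value. Intervals are 95% exact binomial intervals of the reads and cover counting error only.

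Most features read lower in worker 1. As deposited, 7981 of the 8730 features were lower in worker 1 and 749 were higher. The median level was 1.69 RPKM in worker 1, 8.15 in worker 2 and 16.7 in the queen. Among the 8420 features above 0 in both workers, the median ratio was 4.49-fold in favour of worker 2, or -2.17 as log2 of worker 1 over worker 2. Few features made up much of the RPKM sum of worker 1. There 8 features held 50% of the sum, against 45 in worker 2, and 241 held 90% of it, against 2614. RPKM divides by length, so short features weigh more in this sum than in the reads. Cflo_13848, of 313 bases and at 32109 RPKM in worker 1, had 67220 of the 6688533 reads. Because the median ratio was far from 1, the comparison is read both without scaling and with median-of-ratios scaling. The latter sets this ratio to 1. Ratios of single features are printed as deposited unless called scaled, and scaling makes a ratio towards worker 1 4.49 times larger and one towards worker 2 4.49 times smaller. All log2 differences are worker 1 minus worker 2 on the log2(RPKM + 1) scale, which understates the change of low features.

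As deposited, 35 features were at least 4-fold higher in worker 1 (0.401% of those compared) and 2551 were at least 4-fold higher in worker 2 (29.2%). After scaling, 693 (7.94%) were at least 4-fold higher in worker 1 and 226 (2.59%) in worker 2. Either way together this made 29.6% as deposited and 10.5% (919 features) after scaling. Over all features of that mean, of every ID class (8804), the shares higher in worker 1 and in worker 2 were 0.42% and 29.1% as deposited (29.6% together) and 8.17% and 2.58% after scaling (10.7% together). All 35 were among the 693, and all 226 were among the 2551. Of the 693, 650 were higher in worker 1 as deposited too, while 43 were lower there before the scaling. After scaling, 5674 features (65.0%) lay within 2-fold of each other in the workers, and the quartiles of the ratios were -0.91 and 0.96 on the log2 scale without a pseudocount.

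**Figure D1:**
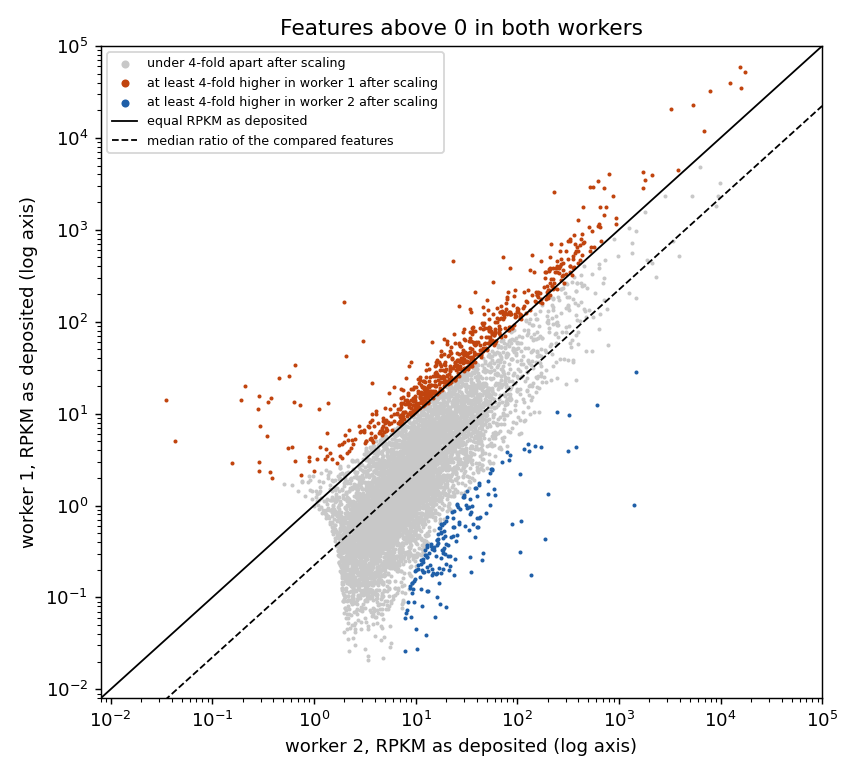
Level of each of the 8420 features above 0 in both workers, with worker 2 on the horizontal and worker 1 on the vertical axis, both in RPKM as deposited on log axes. Most points follow the dashed line of the median ratio, 4.49-fold towards worker 2, while 26 of the 41 features of at least 1000 RPKM lie above the solid line of equality and 15 below it.

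How many features counted as apart followed the scaling. Features whose mean reached 10 RPKM had a median ratio of 2.53-fold towards worker 2, and those of at least 100 RPKM one of 1.11-fold, against 4.49-fold over all. Scaled by the first, 231 features were at least 4-fold higher in worker 1 and 535 in worker 2. Scaled by the second, the counts were 42 and 2170. They were 362 and 390 with upper-quartile scaling, 56 and 1426 with equal sums without the 20 most abundant features, and 177 and 222 with quantile normalization. The 20 features furthest apart, 10 each way, were at least 4-fold apart in the same direction under every scaling and pseudocount tried. They were chosen for large gaps, which favours this.

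**Figure D2:**
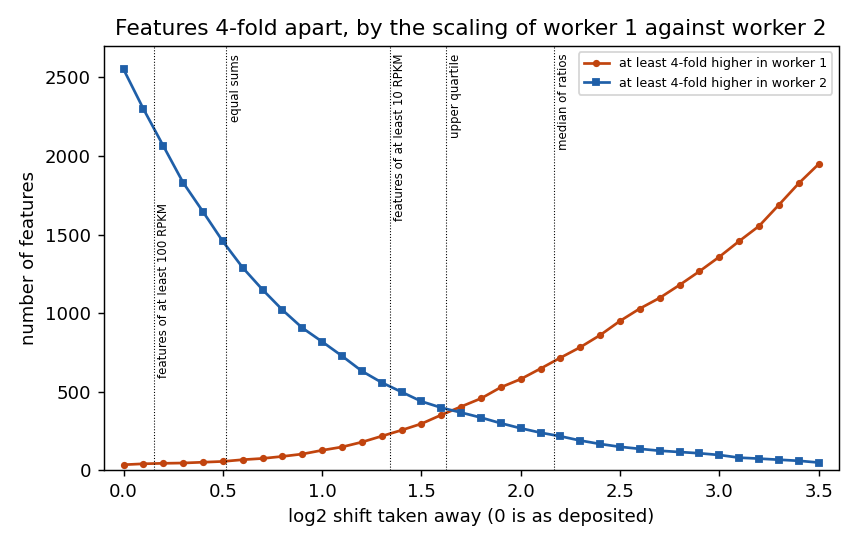
Number of features at least 4-fold higher in worker 1 and in worker 2, on the vertical axis, against the log2 shift taken away from the ratio of the workers, where 0 is as deposited. Dotted lines mark the shifts given by different scalings. The counts run from 35 and 2551 as deposited to 693 and 226 at the median of ratios.

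The feature that stood furthest towards worker 1 was Cflo_00597, at 164 RPKM in worker 1, 1.97 in worker 2 and 0.297 in the queen (1089, 27 and 5 reads). Its value in worker 1 was 83.1-fold that of worker 2 as deposited (56.8 to 127), a log2 difference of 5.79, or 7.49 after scaling. It was thus close to silent in worker 2 and the queen and moderately abundant in worker 1. Cflo_02090 followed the same pattern at 34.0, 0.650 and 0.0756 RPKM in worker 1, worker 2 and the queen, and Cflo_04338 at 19.9, 0.209 and 0.0567 RPKM. The ratio of worker 1 to worker 2 was 52.4 (24.9 to 132) for Cflo_02090, from 178 and 7 reads. For Cflo_04338, from 139 and 3 reads, it was 95.4 (32.0 to 468). After scaling these ratios were 235 and 429. Their intervals are wide because worker 2 gave only a handful of reads.

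Other features high in worker 1 were also present in worker 2 or the queen. Cflo_11189 was at 459 RPKM in worker 1, 23.3 in worker 2 and 292 in the queen, and its ratio of the workers was 19.7 (16.2 to 24.1). As deposited, the queen lay nearer to worker 1 in this feature. Median-of-ratios scaling of the 3 libraries gave factors of 0.301 for worker 1, 1.31 for worker 2 and 2.37 for the queen. Divided by these, its value in the queen lay nearer to worker 2. Cflo_15172 was abundant in both workers, at 2584 RPKM in worker 1 and 232 in worker 2, but at only 0.826 RPKM in the queen. Its ratio of the workers was 11.1 (10.5 to 11.9). Cflo_01169 was at 507, 72.3 and 83.8 RPKM in worker 1, worker 2 and the queen, a ratio of 7.02 (6.31 to 7.82) between the workers. The remaining 4 of the 10 features furthest towards worker 1 were Cflo_12617, Cflo_08700, Cflo_15256 and Cflo_08050. They lay between 24.3 and 62.1 RPKM in worker 1 and between 0.454 and 3.02 in worker 2. Cflo_15256 has the weakest support of these, with 22 reads in worker 1 and 1 in worker 2, and a ratio of 45.3 (7.32 to 1869.8).

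The 35 features at least 4-fold higher in worker 1 without any scaling spanned 5.07 to 32109 RPKM in worker 1. In 15 of them worker 2 was under 1 RPKM, and in 13 of these 15 the queen was under 1 RPKM too. Another 15 reached at least 100 RPKM in worker 1, and 8 reached at least 1000. As deposited, the queen was below both workers in 27 of the 35, between them in 8 and above both in 0. Over all features compared, it was below both in 13.6%, between them in 21.9% and above both in 64.5%. The 35 were chosen for a high value in worker 1, which leaves the queen less room above. The queen was under 1 RPKM in 51.4% of the 35, against 9.60% of all features compared. Among the 8 most abundant, Cflo_06752 was at 20677 RPKM in worker 1, 3253 in worker 2 and 94.6 in the queen, and Cflo_13302 at 22743, 5311 and 1430 RPKM. Their order was the same in each case, with worker 1 highest and the queen lowest.

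Towards worker 2, Cflo_12858 stood furthest. It was at 1.00 RPKM in worker 1, 1399 in worker 2 and 0.594 in the queen, from 4, 11501 and 6 reads. The value in worker 2 was 1396-fold that of worker 1 (545 to 5125), a log2 difference of -9.45 as deposited and -7.73 after scaling. Its neighbour by ID, Cflo_12859, showed the same order, at 1.34 RPKM in worker 1, 203 in worker 2 and 0.143 in the queen. With a recovered length of 5368 bases and 48 reads in worker 1 against 14992 in worker 2, its ratio was 152-fold towards worker 2 (114 to 206), or 33.8-fold after scaling. Both features were abundant in worker 2 alone among the 3 libraries.

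Cflo_05043, Cflo_12912 and Cflo_03975 likewise had high levels in worker 2 only. Cflo_05043 was at 0.173 RPKM in worker 1, 138 in worker 2 and 0 in the queen. Its 1 read in worker 1 leaves the ratio of 796-fold, or 177-fold after scaling, loosely bounded (143 to 31474 as deposited). Cflo_12912 was at 0.430, 186 and 2.21 RPKM in worker 1, worker 2 and the queen, a ratio of 433-fold (210.0 to 1077) towards worker 2 from 7 and 6240 reads. Cflo_03975 was at 0.310, 106 and 0 RPKM in the same order, with a ratio of 343-fold (117 to 1665). Cflo_05045, close to Cflo_05043 by ID and picked with its values known, went the other way, at 7.35 RPKM in worker 1 and 0.297 in worker 2.

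The queen did not always side with worker 1. Cflo_10669 was at 3.89 RPKM in worker 1 (146 reads), 316 in worker 2 (24417 reads) and 4530 in the queen, so it was abundant in the queen and worker 2 and low in worker 1. Its ratio of the workers was 81.2-fold (69.0 to 96.2). Cflo_02333 was at 4.29, 378 and 13.5 RPKM in worker 1, worker 2 and the queen, a ratio of 88.1-fold (67.5 to 117). Cflo_07283 was at 0.628, 88.5 and 20.7 RPKM and Cflo_06728 at 0.670, 108 and 3.91 RPKM in the same order. In these last 3 the queen lay between the workers as deposited. After scaling the 3 libraries by their median ratios, this held for Cflo_07283 only. For Cflo_02333 and Cflo_06728 the queen was then below both workers.

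**Figure D3:**
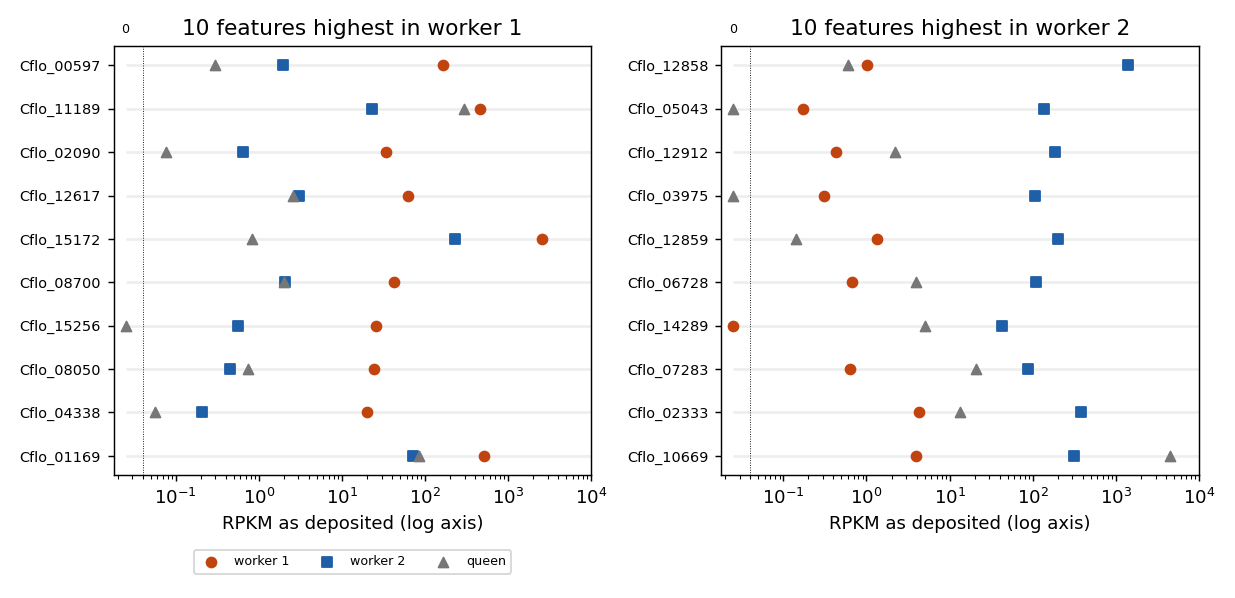
Levels in worker 1, worker 2 and the queen of the 10 features with the largest scaled difference each way among those with a mean of at least 10 RPKM, in RPKM as deposited on a log axis, with values of 0 left of the dotted line. Each point is 1 library. The queen is the lowest library in 7 of the 10 features on the left, and above both workers only for Cflo_10669 on the right.

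High levels were about as frequent among the features towards worker 2 as among all features, and more frequent among those towards worker 1. A mean of 100 RPKM or more over both workers was reached by 8 of the 226 (3.54%) and 169 of the 693 (24.4%), beside 337 of all 8730 (3.86%). The 8 included Cflo_12693 at 28.5 RPKM in worker 1, 1460 in worker 2 and 2.27 in the queen, and Cflo_04332 at 12.4, 615 and 170 RPKM. Cflo_07918 was at 9.70, 323 and 3.03 RPKM and Cflo_12574 at 10.4, 247 and 132 RPKM. In 186 of the 226 worker 1 was under 1 RPKM, beside a median of 1.69 RPKM in worker 1 over all 8730. This follows in part from the choice, since the list asks for worker 1 far below worker 2. Worker 2 was at 6.38 RPKM or more in all 226, so it alone lifted each past the filter. The queen was under 1 RPKM in 70 of the 226 (31.0%), in 59 of the 693 (8.51%) and in 838 of all 8730 (9.60%).

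Absence was almost all on the side of worker 1, the shallower library. Of the 8730 features, 309 were at 0 in worker 1 and 1 was at 0 in worker 2. That one, Cflo_15655, rested on 1 read in worker 1. The filter has a hand in these counts. A feature at 0 in 1 worker is compared only if the other worker alone lifts the mean to 1 RPKM. Worker 2, with a median of 8.15 RPKM against 1.69 in worker 1, does so more readily. At the median ratio of the workers, each read in worker 2 corresponds to 0.108 reads in worker 1. By that measure 133 of the 305 features at 0 with recovered reads would have had under 3 reads in worker 1, so their 0 was within what this depth can miss. For 64 of them the figure was 10 reads or more. The largest was Cflo_07403, with 521 reads and 14.97 RPKM in worker 2, where the median ratio would have given 56.3 reads in worker 1 and 0 were seen.

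Of the features at 0 in worker 1, 20 reached at least 10 RPKM in worker 2, while 0 features did the reverse. Setting worker 1 at 3 reads, which a count of 0 allows, worker 2 was at least 57.0-fold higher for Cflo_05431 (12.7-fold after scaling), at 17.2 RPKM in worker 2 and 12.4 in the queen. It was at least 31.6-fold higher for Cflo_00652 (7.03 after scaling), at 23.4 RPKM in worker 2 and 6.83 in the queen. Cflo_14289 was at 42.4 RPKM in worker 2 and 5.10 in the queen, and worker 2 was at least 18.6-fold higher (4.14 after scaling). The lower limits of the two-sided exact intervals, which also cover the counting error of worker 2, were lower, at 46.1, 25.4 and 14.9 as deposited for these features in the same order. Cflo_12648, a feature of 98 bases at 25.2 RPKM in worker 2 from 34 reads, gave 5.50-fold by the 3 reads and 4.24-fold as the exact lower limit, so its interval includes the general ratio of 4.49-fold. Cflo_14151 was at 16.4 RPKM in worker 2 and 0 in the other 2 libraries, and its length was not recovered. In 9 of the 20 features the queen was under 1 RPKM, beside 9.60% of all features compared. In 5 of the 20 it was at 10 RPKM or more, where its median over all features was 16.7 RPKM.

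The most abundant transcripts leaned to worker 1. Of 41 features whose mean reached 1000 RPKM, 26 were higher in worker 1 as deposited and 36 after scaling, and 26 were at least 4-fold higher in worker 1 after scaling against 0 in worker 2. They made up 62.7% of the RPKM sum in worker 1 and 40.8% in worker 2. Their median log2 difference was 0.87 as deposited and 3.04 after scaling, beside -1.59 and -0.04 over all 8730 features. They were short: 18 of the 32 with a recovered length were under 500 bases (56.3%), against 825 of 8710 (9.47%). The 26 higher in worker 1 as deposited include the consecutive IDs Cflo_13844 to Cflo_13852 and Cflo_15055 to Cflo_15057, described below. Without these IDs, the features higher in worker 1 as deposited did not outnumber the 15 lower.

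The 5 most abundant features of worker 1 belong to a run of 9 consecutive numbers, Cflo_13844 to Cflo_13852, the longest run of IDs at least 4-fold apart the same way after scaling. The other members of the run were less abundant, down to 2881 RPKM in worker 1 for Cflo_13849. Cflo_13851 reached 59501 RPKM in worker 1 and 15508 in worker 2, and Cflo_13846 at 51473 and 17301 RPKM. Cflo_13845 was at 39782 and 12364 RPKM, Cflo_13844 at 35142 and 15719, and Cflo_13848 at 32109 and 7843. The ratio was not the same along the run. That of worker 1 to worker 2 as deposited ran from 1.68 for Cflo_13849 to 4.09 (4.04 to 4.15) for Cflo_13848. Cflo_13847, Cflo_13850 and Cflo_13852 lay between, with ratios of 1.72, 1.83 and 1.94. The queen was lowest in each of the 9. On either side of the run the levels fell away at once, with Cflo_13842 at 3.92, 15.3 and 26.2 RPKM in worker 1, worker 2 and the queen, and Cflo_13843 and Cflo_13853 at 0 in all 3.

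A second run, Cflo_15054 to Cflo_15057, held transcripts abundant in both workers next to a low one. Cflo_15055 was at 3995 RPKM in worker 1, 798 in worker 2 and 336 in the queen, and Cflo_15056 at 3363, 620.0 and 239.8 RPKM. Their ratios of worker 1 to worker 2 were 5.005 (4.87 to 5.14) and 5.42 (5.17 to 5.70). Cflo_15057 was more even, at 4454 and 3814 RPKM in the workers with a ratio of 1.17 (1.15 to 1.19), and Cflo_15054 was at 9.58 and 7.15 RPKM. The ratios of the first 2 therefore differed from those of Cflo_15057 by more than counting error. Features that share sequence may share reads, and without sequences that could not be checked for either run.

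**Figure D4:**
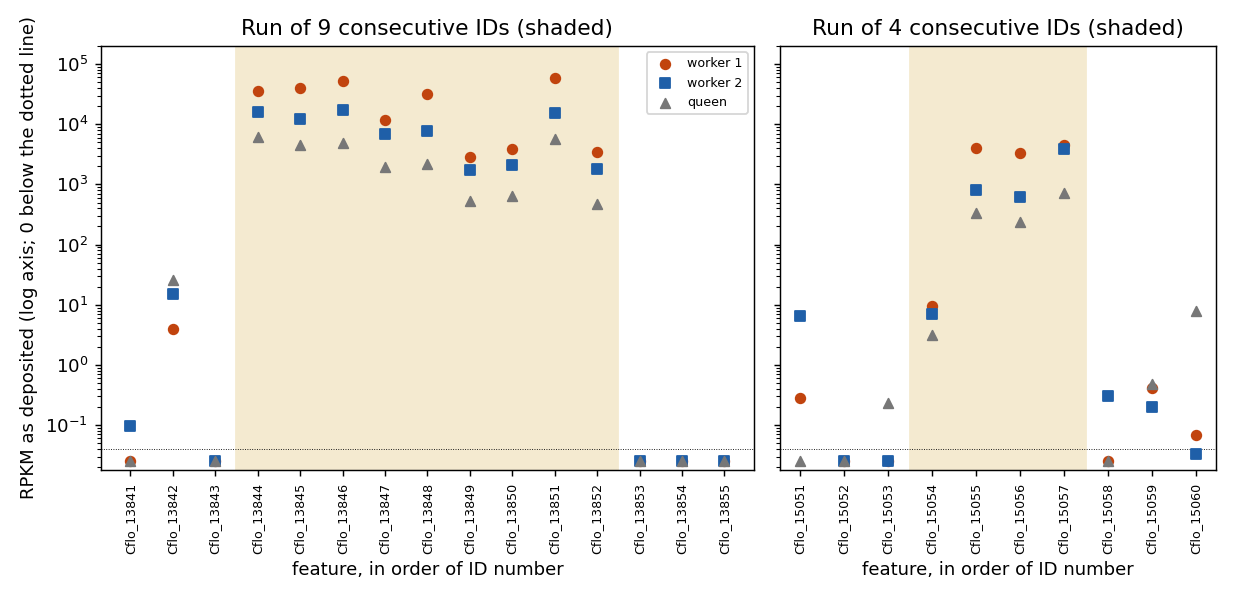
Level of each feature in the runs of 9 and 4 consecutive IDs (shaded) and of 3 IDs on either side, in RPKM as deposited on a log axis, with 1 point per library and values of 0 below the dotted line. In all 9 features on the left the order is worker 1, worker 2, queen, and the IDs around them are far below them or at 0.

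The other 4 runs had 3 features each, Cflo_00302 to Cflo_00304, Cflo_01259 to Cflo_01261, Cflo_11765 to Cflo_11767 and Cflo_12234 to Cflo_12236. All 6 runs stood towards worker 1 and 0 towards worker 2. The list towards worker 1 was also the larger, with 693 features (7.94% of all) against 226 (2.59%), which leaves more room for runs. Without the scaling, only Cflo_13848, Cflo_15055 and Cflo_15056 of the 25 features in the 6 runs were at least 4-fold higher in worker 1. In the 4 shorter runs the log2 differences as deposited lay between -0.0028 and 0.95, apart from 1.84 for Cflo_12235. Cflo_11766 was at 43.9 RPKM in both workers as deposited, and its difference was 2.11 after scaling. Cflo_12235 was at 127 RPKM in worker 1, 34.8 in worker 2 and 7.01 in the queen, a ratio of 3.66 (3.07 to 4.38).

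Neighbouring IDs went the same way more often than features at large. Each of the 693 was taken with the compared features next to it in number, so a feature between listed ones counts for each. Of the 1036 neighbours so counted, 138 were in the same list (13.3%), where 7.94% of all features are. Without the run of 9 the figures were 122 of 1020 (12.0%) and 7.84%. Next to the 226 features towards worker 2, 18 of 302 neighbours were in the same list (5.96%), beside 2.59% of all. Across features whose mean reached 10 RPKM, scaled differences of consecutive IDs had a Pearson's r of 0.26 over 656 pairs, 0.23 without the run of 9, and 0.02 at a distance of 5 IDs. All points come from the same libraries, the correlation is weak, and neighbours may share level and length. It carries no test.

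The ratio of the workers changed with level. In 8 bins of the mean scaled log2 level, the median log2 of worker 1 over worker 2, as deposited, rose from -2.12 in the fifth bin to -1.72, -1.42 and, in the highest bin, -0.55. The lowest bins were at -3.63 and -2.82. There the filter has a hand, since a feature low in worker 1 passes a mean of 1 RPKM only if worker 2 is high. The highest bin, of 1092 features, had a median of 38.1 RPKM in worker 1 and 66.1 in worker 2. It held 418 of the 693 features towards worker 1 (38.3% of the bin, beside 7.94% of all features). Of the 226 towards worker 2 it held 12 (1.10% of the bin, beside 2.59% of all). The pseudocount of 1 shrinks differences at low levels, so fewer low features can reach 4-fold. The lowest bin held 0 towards worker 1 and 11 towards worker 2.

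It also changed with length, above as well as below the median level. Above it, the median log2 ratio went from -0.57 in the shortest of 4 length bins to -2.07 in the longest. Below it, the ratio went from -2.28 to -3.08. The 693 features towards worker 1 had a median recovered length of 730.5 bases and the 226 towards worker 2 of 1630.0, beside 1607.5 for all. In the shortest of 8 length bins, up to 587 bases, 22.1% were at least 4-fold higher in worker 1 after scaling. In the longest bin, from 3737 bases, it was 0.643%. For worker 2 the shares were 3.02% and 3.22%, close to each other. With the ratio centred within 8 bins of length, 305 features stood towards worker 1 and 298 towards worker 2. The part of length and level in the differences between the workers was not tested.

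**Figure D5:**
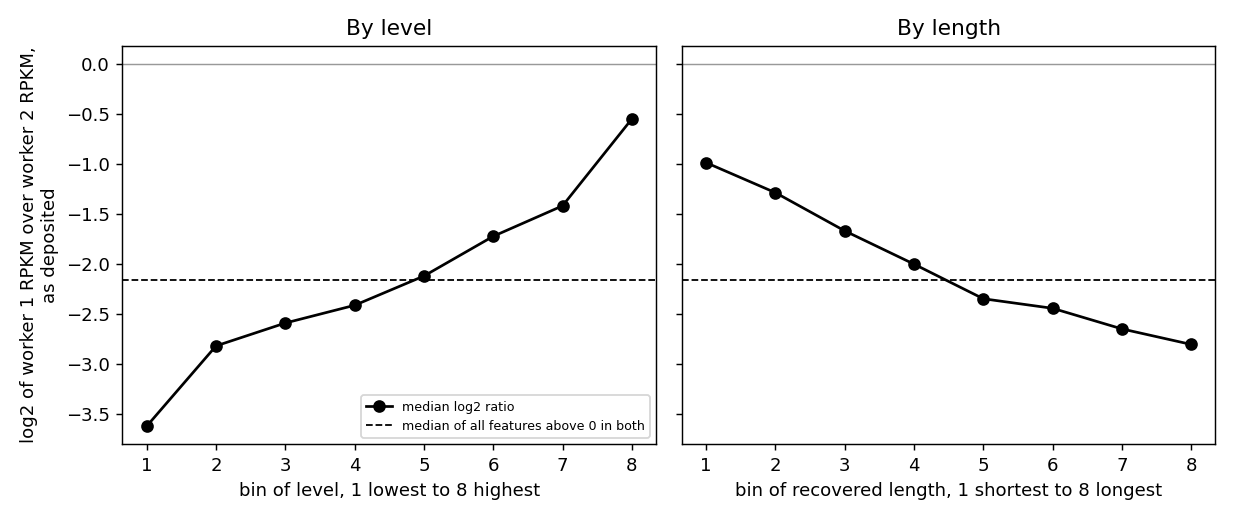
Median log2 of worker 1 over worker 2, as deposited, in 8 bins of features by level (left) and by recovered length (right), with the median of all features, -2.17, as a dashed line. The ratio climbs to -0.55 in the most abundant bin and runs from -0.99 in the shortest to -2.81 in the longest bin.

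Some abundant features followed the median ratio closely. Cflo_16554 had 757 RPKM in worker 1 and 3440 in worker 2, a scaled difference of -0.02. Cflo_08313 was at 35.6 and 169 RPKM (-0.08 after scaling) and Cflo_08691 at 112 and 475 RPKM (0.09). Cflo_02738, among the 5 most abundant features of worker 2, was at 3257 RPKM in worker 1, 9908 in worker 2 and 9.10 in the queen. Its ratio was 3.04-fold (2.997 to 3.09) towards worker 2 as deposited, and after scaling its difference turned to 0.56 towards worker 1. Its direction between the workers thus depends on the scaling, while both workers were far above the queen.

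Seen from the queen, the lists differed. After scaling all 3 libraries by their median ratios, the queen was below both workers in 531 of the 693 features towards worker 1 (76.6%), beside 39.3% of all features. In the 226 towards worker 2 it was below both in 93 (41.2%) and between them in 113, beside 21.9% of all. As deposited, the queen was between the workers in 162 of the 226 (71.7%, beside 21.9% of all features) and below both in 355 of the 693 (51.2%, beside 13.6%). These shares are a description. A feature chosen for a high value in 1 worker leaves the queen less room above it, and a wide gap between the workers leaves more room between them.

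Near the threshold, Cflo_04339 had a mean of 1.0011 RPKM, with 9 reads in worker 1 and 19 in worker 2, and Cflo_09831 a mean of 1.0004 from 0 and 7 reads. Just outside were Cflo_00848, with 1 and 13 reads, and Cflo_07161, with 2 and 32 reads. Of the numbered IDs, 7971 were left out by the threshold, of which 4517 were at 0 in both workers.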

How the data were processed

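Poly(A) RNA of 3 whole ants was made into strand-specific libraries, per the labels' protocols. The authors deposited RPKM values, 1 column per library, per the file headers. STAR 2.5.0b is named in the submitters' processing notes, but annotation, counting tool and genome build were not given in the sources used here. Totals, lengths (20 to 30000 bases) and reads were recovered from the 6-digit values where fewer than 0.05 chance matches were expected. The recovery was checked on simulated data, where its commonest error was a true length divided by a whole number. Reads are then too few by the same factor and the interval too wide, while the ratio of the workers is unchanged. No count model was fitted. The work used Python 3.11.15, numpy 2.4.6, pandas 2.3.3, scipy 1.17.1 and matplotlib 3.10.9.

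The scaling factor is the median ratio of the compared features above 0 in both workers, split evenly between the columns, with a pseudocount of 1 added afterwards. Named features are the 10 furthest apart each way after scaling with a mean of at least 10 RPKM, the 5 most abundant per worker, the 3 closest after scaling from 100 RPKM, runs of 3 or more consecutive IDs (6, since the last 4 tie), features at 0 in 1 worker and at least 10 RPKM in the other (at most 5 each way), and those at the threshold. Others were chosen after their values were seen, including those at 1000 RPKM or more and among the 35. The members and lists were chosen with earlier results of these data known.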

Additional observations from a re-analysis of the deposited data

Results flagged for a closer look

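Features outside the numbered IDs also gave signal in the workers, above the 3 reads that a count of 0 allows. These were 19 tRNA, 13 rRNA, 15 snRNA and 2 mir features, and 2 features whose ID holds 2 numbers. The rRNA features made up 15.5% of the RPKM sum in worker 1 and 8.51% in worker 2. Of the 15 rRNA features whose mean reached 1 RPKM, 8 were at least 4-fold higher in worker 1 after scaling and 0 in worker 2. As deposited the counts were 1 and 0. Among numbered features, 7.94% were at least 4-fold higher in worker 1 after scaling, and 169 of the 337 of at least 100 RPKM. The rRNA counts were not compared with numbered features of like level. The median log2 difference of the 15 was 0.28 as deposited and 2.24 after scaling. The 15 snRNA features with that mean had a median of -0.07 as deposited and 1.86 after scaling. The 41 tRNA features with that mean were at -1.59 and -0.02. Only 19 tRNA features were above 3 reads in a worker, so most of the 41 lay near the floor. Their medians cannot be set beside those of the numbered features.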

How the results depend on the processing

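No paired analysis was possible because the queen and worker groups share only 1 replicate number and the comparison has 1 library a side. Leaving out a worker leaves no comparison. As deposited, the 35 features higher in worker 1 became 21 with a pseudocount of 5, 146 at 2-fold and 16 at 8-fold. The 2551 higher in worker 2 became 4778 with a pseudocount of 0.1, 424 with one of 5, 1507 from 5 RPKM, 6535 at 2-fold and 457 at 8-fold. After scaling, the 693 higher in worker 1 became 424 with a pseudocount of 5, 393 from 5 RPKM, 1733 at 2-fold, 149 at 8-fold, 362 by upper quartile, 56 by equal sums without the 20 most abundant features, 177 by quantile normalization and 305 within length bins. The 226 higher in worker 2 became 927 with a pseudocount of 0.1, 27 with one of 5, 1323 at 2-fold, 33 at 8-fold, 390 by upper quartile and 1426 by equal sums. Factors from features of at least 10 or 100 RPKM, chosen after seeing the data, gave 231 and 42 against 535 and 2170. The share of these features that was higher in worker 1, 75.4%, ran from 1.90% with the factor from 100 RPKM to 94.0% with a pseudocount of 5. The other settings kept each count within 1.5 times. The median difference of -1.59 was -2.14 with a pseudocount of 0.1, -0.80 with one of 5, -1.55 from 5 RPKM and -1.23 without a filter. Of the 49 named features at least 4-fold apart after scaling 3 changed sign: Cflo_13846 (-0.19) and Cflo_13844 (-0.50) by quantile normalization, and Cflo_11766 (-0.0028) as deposited. Of the other 4 named features 3 did: Cflo_02738 (from 0.56 to as low as -2.69) and Cflo_08691 (from 0.09 to as low as -2.07) under several scalings, and Cflo_08313 (from -0.08 to 0.10) within length bins. The cause of these changes was not tested. Worker 1, with a median of 20 reads per feature, limits the precision.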
